A study of Mus musculus with 12 samples.

Results

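The genes described here are 33 members of the lysosomal system in mouse liver: 6 membrane proteins and regulators, 6 enzymes or cofactors of lipid and sphingolipid breakdown, 12 enzymes that cut glycans and glycosaminoglycans, and 9 proteases and protective proteins. They were chosen by name as well-known lysosomal genes, with earlier results of these data known. All with a mean level above 0 were kept. Shares of members set beside shares of all genes are therefore descriptions. All 33 were found among the 23284 genes of the table, and all 33 passed the level filter of at least 1 FPKM (fragments scaled to transcript length and to the mapped fragments of the library) in at least 2 libraries. The weakest, Ctsk, was listed between 0.110 and 1.29 FPKM and passed only through DKO/hA1 libraries, so its fold changes are less certain than those of the others.

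Liver RNA was sequenced in 4 groups of mice. Every animal lacked both mouse Apoa1 and mouse Apoe (genotype Apoa1-/- Apoe-/-, called DKO), and in the DKO/hA1 groups the same double knockout also expressed a human APOA1 gene. Each genotype received chow or Western diet, a high-fat diet, for 22 weeks. There were 4 libraries of DKO chow, 3 of DKO Western diet, 2 of DKO/hA1 chow and 3 of DKO/hA1 Western diet. Both deletions are thus shared by all 4 groups, and no group with intact Apoa1 and Apoe is compared here. The promoter of the human gene, the sex of the mice and whether any RNA was pooled are not given in the sources used here. The labels number the samples of a group without saying that each came from a separate animal, so p-values measure the spread between these samples. In the column headers a number follows the diet code, and its meaning is not given in the sources used here. Some of these numbers were shared by the genotypes, and both DKO/hA1 chow libraries carry the same number. The diets shared none, so diet and whatever the number stands for cannot be told apart.

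Lysosomes are acidic compartments in which hydrolases break down lipids, glycans, proteins and whole organelles delivered by endocytosis, phagocytosis and autophagy. A proton pump keeps them acidic, and heavily glycosylated membrane proteins line their inner face. Many lysosomal genes carry the CLEAR element, an E-box with the core CACGTG that is bound by the transcription factor TFEB and its relatives. In liver, lysosomes of hepatocytes digest lipoproteins and lipid droplets, and those of Kupffer cells, the resident macrophages, digest particles taken from blood; acid lipase frees cholesterol from the cholesteryl esters of lipoproteins.

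Promoter sequences are shown first, because the CLEAR core is the element by which lysosomal genes are usually grouped and the members differed in it. RefSeq promoter windows of build GRCm38.p6, from 250 bases before to 50 bases after an annotated start, were matched by symbol to 31 of the 33 members. The letters CACGTG, a palindrome and so the same on both strands, stood in the windows of 9 members, or 29.0%, against 997 of the 8299 tested genes with a window and 8.09% of all 27025 genes with a window. The 7-letter form TCACGTG, which contains the first motif and was searched on both strands, stood in 8 members, or 25.8%, against 7.11% of tested genes. GAGGAAG, an element of the kind bound by PU.1, a transcription factor of macrophages, stood on either strand in 7 members, or 22.6%, against 16.1%. These shares describe letters in a window and say nothing of binding. The stretches printed run 5′ to 3′ on the strand of the gene, from 120 bases before to 30 bases after the start; capitals mark TCACGTG on either strand or, in Laptm5, the reverse complement of GAGGAAG.
Lamp1 (chr8:13159041-13159190, plus strand): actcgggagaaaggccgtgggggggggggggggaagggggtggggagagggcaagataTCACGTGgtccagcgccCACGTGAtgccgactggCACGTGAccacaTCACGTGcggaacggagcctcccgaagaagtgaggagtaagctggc
Mcoln1 (chr8:3500399-3500548, plus strand): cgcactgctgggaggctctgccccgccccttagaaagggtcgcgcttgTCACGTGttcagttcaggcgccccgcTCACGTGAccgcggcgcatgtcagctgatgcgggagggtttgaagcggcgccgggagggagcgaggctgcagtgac
Glb1 (chr9:114400958-114401107, plus strand): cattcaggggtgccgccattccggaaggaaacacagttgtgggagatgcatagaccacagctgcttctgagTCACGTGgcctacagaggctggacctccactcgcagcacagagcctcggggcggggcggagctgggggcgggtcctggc
Lgmn (chr12:102439063-102439212, minus strand): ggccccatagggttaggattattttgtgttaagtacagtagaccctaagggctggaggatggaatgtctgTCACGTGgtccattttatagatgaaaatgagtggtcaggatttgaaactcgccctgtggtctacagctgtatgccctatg
Gusb (chr5:130003020-130003169, minus strand): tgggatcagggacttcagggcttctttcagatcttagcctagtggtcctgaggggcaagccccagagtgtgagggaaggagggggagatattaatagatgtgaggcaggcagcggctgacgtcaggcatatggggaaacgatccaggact
Laptm5 (chr4:130913196-130913345, plus strand): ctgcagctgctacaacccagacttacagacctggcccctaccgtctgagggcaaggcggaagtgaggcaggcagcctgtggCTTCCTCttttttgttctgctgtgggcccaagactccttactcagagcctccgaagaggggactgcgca

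Lamp1, a major glycoprotein of the lysosomal membrane, held 4 copies of CACGTG, which began 61, 45, 28 and 15 bases before its start. Mcoln1, a cation channel that releases calcium from lysosomes, held 2 copies, at 71 and 45 bases. Glb1, lysosomal beta-galactosidase, held 1 copy at 48 bases, and Lgmn, legumain, an asparagine-specific protease, held 1 copy at 49 bases from 1 of its 2 annotated starts. The other members with the motif were Ctsa, Ctsl, Gaa, Gla and Sgsh. The stretch of Gusb, beta-glucuronidase, and that of Laptm5, a lysosomal membrane protein of blood-cell lineages, are printed for contrast: neither holds CACGTG. The window of Gusb also holds the reverse complement of GAGGAAG, from base 39 after the start, beyond the stretch printed. The other members with GAGGAAG on either strand were Ctsc, Ctsk, Gla, Lipa and Man2b1. On Western diet, as the mean of both genotypes, Lamp1 and Mcoln1 had log2 fold changes of 0.10 and 0.01 that did not pass the test, whereas Glb1, Lgmn, Gusb and Laptm5 were called higher. Of the 7 members called, Glb1 and Lgmn had CACGTG in a window and Gusb, Hexa, Psap, Grn and Laptm5 had none. Over all 31 members with a window, the called ones included, 9 had it, or 29.0%. Whether the motif bears on the diet effect was not tested.

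The members spanned a wide range of levels. Averaged over the 12 libraries, 7 members had at least 100 FPKM: Ctsl (cathepsin L, 294 FPKM), Lamp1 (267), Psap (257), Lamp2 (233), Ctsz (173), Ctsh (115) and Grn (110). A further 17 lay from 10 to under 100 FPKM, 8 from 1 to under 10 FPKM, and 1, Ctsk, a collagen-cutting protease of osteoclasts, lay under 1. FPKM is per length, so these levels can be compared between genes. Ctsl, Lamp1, Psap and Lamp2 together held 48.7 to 56.3% of the FPKM summed over the members in each library. Ctsh varied by 2.23% (coefficient of variation) among the 4 DKO chow libraries, whereas Lgmn varied by 39.8% and Laptm5 by 31.0% there.

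The libraries themselves were alike in breadth, with 10298 to 11005 genes at 1 FPKM or more, and none was a copy of another. Hepatocyte markers were high throughout, with a sum of 8449 to 14090 FPKM over 10 genes. Read numbers are not used here. Relative depth estimated from low values ran from 0.514 in DKO chow replicate 2 to 1.32 in DKO/hA1 Western diet replicate 2, where DKO chow replicate 1 is 1. This estimate is rough: it is the most common ratio among low values, held by 15.1% and 5.81% of them in these 2 libraries. DKO chow replicate 2 had the lowest value of its group for 17 of the 33 members, and DKO/hA1 chow replicate 2 the lower value of its pair for 23. These same libraries were low in macrophage markers, with sums over 16 genes of 326.8 and 249.9 FPKM against 616.4 to 758.1 FPKM in the other chow libraries, and low in endothelial markers, with 41.1 and 36.6 FPKM against 102.9 to 121.9.

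The summed FPKM of the members, as deposited, was higher in each Western diet library than in each chow library. It was 1910, 1612, 1843 and 1694 FPKM in DKO chow and 2265, 2396 and 2371 in DKO Western diet. In DKO/hA1 it was 1800 and 1779 FPKM on chow and 2177, 2190 and 2482 on Western diet. The chow groups of the 2 genotypes overlapped, and so did their Western diet groups. After the scaling used for the tests the diets were also apart, with 2147 FPKM in the lowest Western diet library and 1913 in the highest chow library. As a share of the FPKM of the genes tested they were not apart in DKO: the members held 0.404 to 0.462% in DKO chow and 0.443 to 0.529% in DKO Western diet, where the summed FPKM of those genes was itself higher (427776 to 541319 against 385685 to 413318). In DKO/hA1 the shares were 0.440 and 0.482% on chow and 0.525 to 0.596% on Western diet. By role, the protease sum went from 707.9 ± 73.1 FPKM (SD, n = 4) in DKO chow to 1080 ± 97.8 (n = 3) in DKO Western diet, and the membrane and regulator sum went from 589 ± 43.7 to 655.8 ± 18.8. In DKO/hA1 the lipid and sphingolipid sum was 325.1 ± 34.9 FPKM (n = 2) on chow and 468.2 ± 41.4 (n = 3) on Western diet. These sums are descriptions, to which a few abundant genes contribute most. In bulk tissue, fewer cells of a type and less RNA per cell cannot be told apart, which holds for every comparison below.

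**Figure D1:**
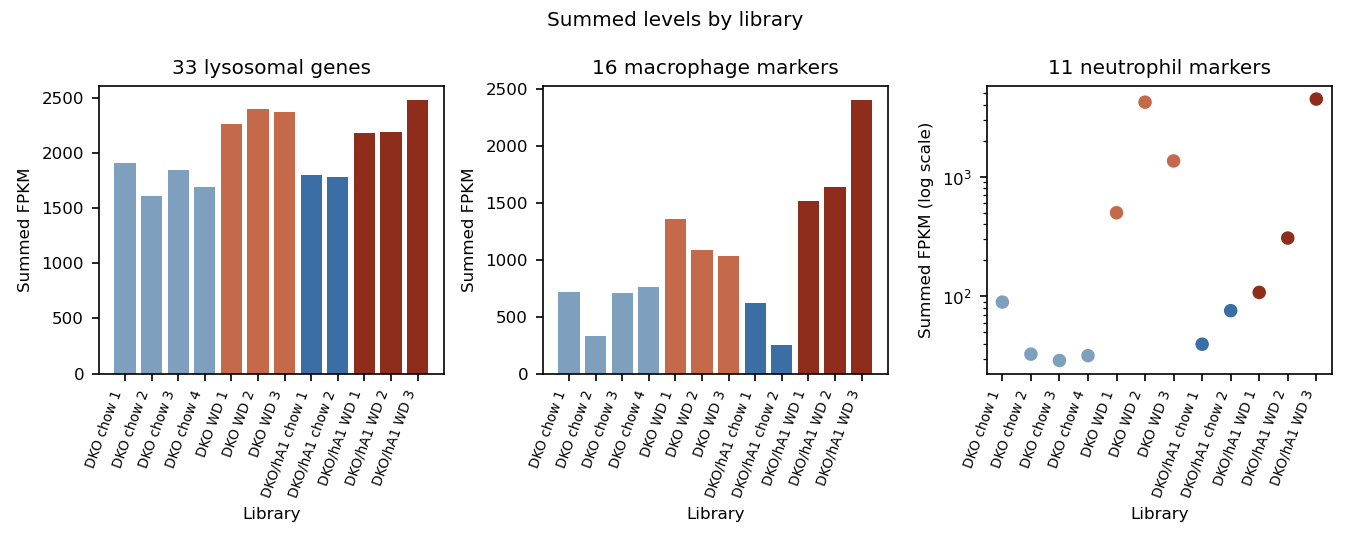
Summed FPKM in each library (x axis, coloured by group; WD, Western diet) of the 33 members (left, bars), of 16 macrophage and Kupffer cell markers (middle, bars) and of 11 neutrophil markers (right, points, log axis). In FPKM as deposited, each Western diet library lies above each chow library in all 3 sums, DKO/hA1 chow replicate 2 has the lowest macrophage sum, 249.9 FPKM, and the highest neutrophil sums are 4218 and 4477 FPKM.

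Western diet was compared with chow within each genotype and as the mean of the 2 genotypes, which uses the same libraries again and is not independent of them. All fold changes are log2 of scaled FPKM plus 1, tested with limma and adjusted by Benjamini-Hochberg over the 11546 genes tested. As the mean of both genotypes, 7 of 33 members passed at an adjusted p below 0.05, all higher, where 2.75% of all tested genes were called higher (318) and 3.95% in either direction (456). They were Glb1, Gusb, Hexa, Laptm5, Psap, Grn and Lgmn. In DKO/hA1 alone 3 members passed, all higher, against a background of 0.996% called higher and 1.32% called in either direction. In DKO alone 0 passed, against 0.0520% higher and 0.113% in either direction; at an unadjusted p below 0.05, 13 members were higher and 0 lower there, against 7.12% of genes higher. No other tool was run.

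The calls depended on single libraries and on the scaling. Without DKO/hA1 chow replicate 2, which leaves that group with 1 library assumed to vary like the others, 0 members and 34 genes passed as the mean of both genotypes. Without DKO chow replicate 3, the members called were 4: Laptm5, Glb1, Gusb and Hexa. Without the libraries highest in neutrophil markers, replicate 2 of DKO Western diet and replicate 3 of DKO/hA1 Western diet, they were also 4: Psap, Glb1, Gusb and Hexa. With totals made equal, a scaling that moved the median of all genes to -0.14, they were 3: Laptm5, Glb1 and Grn. The 3 calls in DKO/hA1 alone became 0 without replicate 1 or 3 of DKO chow, without replicate 2 of DKO Western diet, and without replicate 2 of either DKO/hA1 group. A single one of them remained without replicate 4 of DKO chow or replicate 3 of DKO Western diet (Gusb in both cases) and without replicate 1 of DKO/hA1 chow (Laptm5). Without DKO/hA1 Western diet replicate 3 none of them remained and Psap was called instead, and without replicate 1 of that group the calls were Gusb and Hexa. The calls were also 0 with equal totals, with no filter on levels, and when only the DKO/hA1 groups were fitted.

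The median log2 fold change of the members was 0.27 in DKO, 0.23 in DKO/hA1 and 0.26 as the mean of both, against -0.0048, -0.011 and -0.0098 over all genes tested. With totals made equal these medians were 0.0685, 0.154 and 0.108, against -0.186, -0.0843 and -0.137 over all genes. Values were above 0 for 29 of 33 members in DKO, where 48.9% of all genes were above 0, and for 29 in DKO/hA1, where 48.0% were. Of the members, 27 were above 0 in both genotypes, and 16 had the larger value in DKO/hA1. In FPKM as deposited, all 6 Western diet libraries lay above all 6 chow libraries for 9 members, Ctsa, Ctsz, Glb1, Grn, Gusb, Hexa, Laptm5, Lgmn and Psap, and below them for 0; over all genes the shares were 2.51% and 0.598%. As shares of the FPKM of the genes tested, an alternative chosen after seeing the data, this held for 1 member, Grn, and 0.693% of all genes, so statements that diets did not overlap hold for FPKM as deposited. Within each genotype the diets did not overlap, with Western diet higher, for 14 members in both, where 4.28% of all genes did so, and lower for 0, where 1.13% did.

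**Figure D2:**
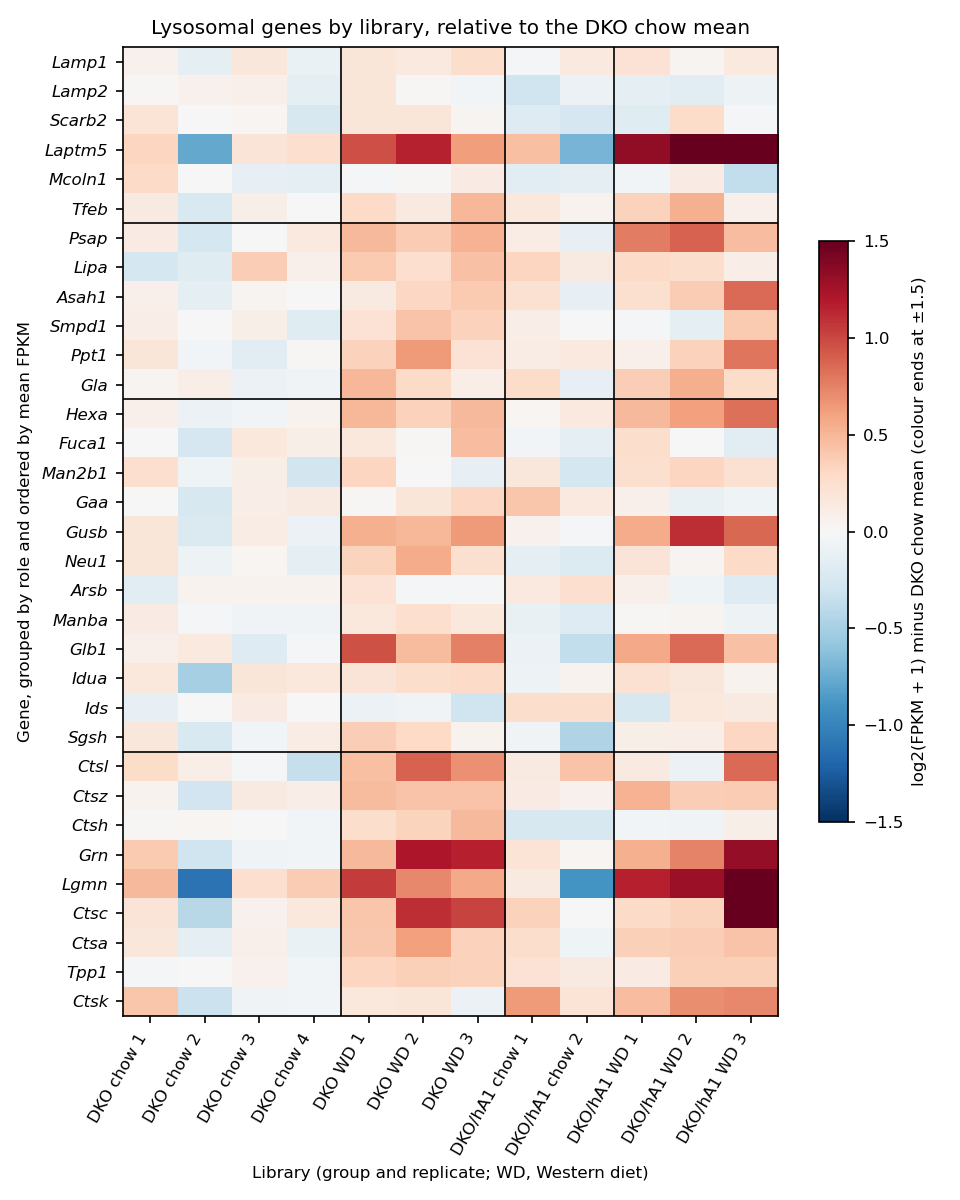
Heat map of the 33 members (rows, by role) in the 12 libraries (columns, by group), coloured by log2(FPKM + 1) minus the mean of DKO chow; colours end at ±1.5. Laptm5, Lgmn, Grn and Ctsc are the most strongly red rows on Western diet, and replicate 2 of DKO chow and of DKO/hA1 chow is blue, below the DKO chow mean, for Laptm5 and Lgmn.

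Among membrane proteins and regulators, 1 of 6 passed. Laptm5 (chr4:130912890-130936148) was at 20.9, 9.35, 19.1 and 19.9 FPKM in the DKO chow libraries and at 33.2, 38.1 and 26.1 in DKO Western diet. It was at 23.0 and 9.80 FPKM on chow and at 43.1, 51.65 and 60.8 on Western diet in DKO/hA1. The diets did not overlap in either genotype, and replicate 2 of both chow groups stood well below its group. The log2 fold change was 0.85 ± 0.30 (SE) in DKO, with a limma adjusted p of 0.317, and 1.69 ± 0.36 in DKO/hA1, with an adjusted p of 0.0491. As the mean of both it was 1.27 ± 0.23, a fold of 2.41, with an adjusted p of 0.016. Without DKO/hA1 chow replicate 2 the DKO/hA1 value was 1.12.

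The main glycoprotein of the membrane did not pass. Lamp1 (chr8:13159161-13175338) was at 260, 227.4, 281 and 232.7 FPKM in DKO chow and at 282.2, 275.7 and 298.7 in DKO Western diet. It was at 243.5 and 275.6 FPKM on chow and at 289.6, 257.1 and 277.1 on Western diet in DKO/hA1. The diets overlapped in both genotypes. The mean log2 fold change was 0.10 ± 0.09 with a 95% interval from -0.11 to 0.30 and a limma adjusted p of 0.618. With totals made equal its value in DKO turned to -0.10.

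Lamp2, a partner glycoprotein required for fusion with autophagosomes, had a mean log2 fold change of 0.02, Scarb2, which carries beta-glucocerebrosidase to the lysosome, of 0.15, and Mcoln1 of 0.01, none of which passed. Tfeb, the transcription factor of the CLEAR element, was at 3.43, 2.44, 3.31 and 3.08 FPKM in DKO chow and at 3.93, 3.43 and 4.74 in DKO Western diet, so that the lowest Western diet value lay just above the highest chow value. It was at 3.53 and 3.21 FPKM on chow and at 4.15, 4.87 and 3.26 on Western diet in DKO/hA1, which overlapped. Its mean log2 fold change was 0.23 ± 0.10, with a limma adjusted p of 0.255. TFEB is known to be controlled mainly by phosphorylation and entry into the nucleus, which transcript levels do not show.

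Among lipid and sphingolipid hydrolases and their cofactors, 1 of 6 passed and all 6 had a mean log2 fold change above 0, with a median of 0.29. Psap (chr10:60277628-60302600), the precursor of the saposins that present sphingolipids to their hydrolases, was at 223.5, 169.6, 204.1 and 226.2 FPKM in DKO chow and at 287, 266.4 and 293.8 in DKO Western diet. It was at 220.5 and 187 FPKM on chow and at 348.8, 377.1 and 281.4 on Western diet in DKO/hA1. Every Western diet library was above every chow library. Log2 fold changes were 0.39 ± 0.14 in DKO and 0.70 ± 0.17 in DKO/hA1, neither of which passed (limma adjusted p of 0.317 and 0.0679). The mean was 0.55 ± 0.11, with an adjusted p of 0.0204.

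Lipa, the acid lipase of cholesteryl esters and triglycerides, was at 49.7, 52.7, 77.5 and 63.1 FPKM in DKO chow and at 78.8, 71.5 and 81.3 in DKO Western diet. It was at 75.2 and 65.7 FPKM on chow and at 73, 72.1 and 64.0 on Western diet in DKO/hA1. The diets overlapped in both genotypes. Its log2 fold change was 0.29 ± 0.14 in DKO and -0.03 ± 0.17 in DKO/hA1, and the difference between the 2, -0.32 ± 0.22, had a limma adjusted p of 0.961. Asah1, acid ceramidase, at 0.32, Ppt1, which removes palmitate from proteins, at 0.30, Gla, alpha-galactosidase A, at 0.28, and Smpd1, acid sphingomyelinase, at 0.14 did not pass as the mean of both genotypes. Asah1 overlaps Frg1 over 8464 bases, and Frg1 averaged 11.8 FPKM, so reads of the 2 genes may not be fully separated.

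**Figure D3:**
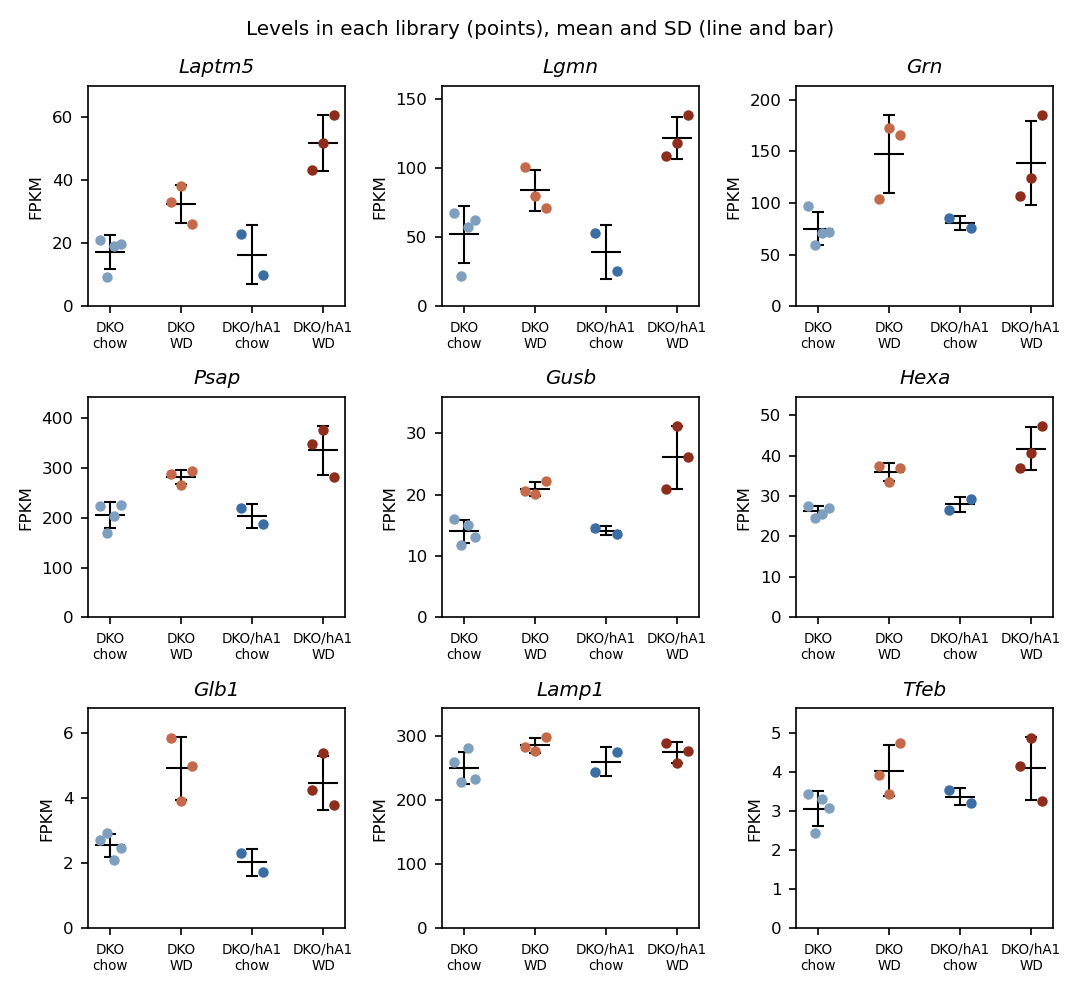
FPKM of 9 members in each library by group (WD, Western diet), with 0 as the lower end of each axis; points are libraries, and horizontal lines with bars are means ± SD. Laptm5, Lgmn, Grn, Psap, Gusb, Hexa and Glb1 lie higher on Western diet without overlap, whereas Lamp1 overlaps between diets in both genotypes and Tfeb in DKO/hA1.

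Among enzymes of glycans and glycosaminoglycans, 3 of 12 passed, all higher. Glb1 (chr9:114401078-114474379), which removes beta-linked galactose from gangliosides and keratan sulfate, was at 2.71, 2.91, 2.095 and 2.475 FPKM in DKO chow and at 5.85, 3.92 and 4.98 in DKO Western diet. It was at 2.31 and 1.73 FPKM on chow and at 4.24, 5.38 and 3.78 on Western diet in DKO/hA1. The diets did not overlap, and the mean over the 6 Western diet libraries was 1.98 times that over the 6 chow libraries. The log2 fold change was 0.67 ± 0.15 in DKO (limma adjusted p of 0.147) and 0.84 ± 0.18 in DKO/hA1 (adjusted p of 0.0484). The mean was 0.76 ± 0.12, with an adjusted p of 0.0077. Glb1 overlaps the gene Tmppe over 10107 bases, and the use of strand in counting is not given in the sources used here, so their reads may not be fully separated; Tmppe itself averaged 1.04 FPKM and had a mean log2 fold change of -0.0073.

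Gusb (chr5:129989011-130003049), which removes glucuronic acid from glycosaminoglycans, was at 15.95, 11.85, 15.1 and 13.1 FPKM in DKO chow and at 20.5, 20.05 and 22.2 in DKO Western diet. It was at 14.6 and 13.6 FPKM on chow and at 20.9, 31.2 and 26.1 on Western diet in DKO/hA1. Every Western diet library was above every chow library, by the widest margin in DKO/hA1 Western diet replicate 2. The log2 fold change was 0.49 ± 0.13 in DKO (limma adjusted p of 0.209), 0.81 ± 0.16 in DKO/hA1 (adjusted p of 0.0357) and 0.65 ± 0.10 as the mean (adjusted p of 0.0084).

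Hexa (chr9:59539540-59565109), the alpha subunit of the beta-hexosaminidase that degrades gangliosides, was at 27.6, 24.7, 25.4 and 27.1 FPKM in DKO chow and at 37.55, 33.4 and 37.05 in DKO Western diet. It was at 26.7 and 29.15 FPKM on chow and at 37.0, 40.7 and 47.4 on Western diet in DKO/hA1. Again no chow library reached the lowest Western diet library. The mean log2 fold change was 0.46 ± 0.08, with a limma adjusted p of 0.0124, and the values within DKO, 0.37 ± 0.11, and DKO/hA1, 0.55 ± 0.13, did not pass (adjusted p of 0.227 and 0.0627).

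The remaining 9 enzymes of this role did not pass. Neu1, the lysosomal sialidase, had a mean log2 fold change of 0.32 (limma adjusted p of 0.0682), Sgsh, a sulfatase of heparan sulfate, of 0.30, Idua, alpha-L-iduronidase, of 0.17, and Man2b1, alpha-mannosidase, of 0.15. Idua overlaps Slc26a1 over 8503 bases, and Slc26a1 averaged 49.0 FPKM, so reads of the 2 genes may not be fully separated. Manba, beta-mannosidase, and Fuca1, alpha-fucosidase, were both at 0.13. Below 0 lay Gaa, the alpha-glucosidase that degrades glycogen (-0.11), Arsb, which removes sulfate from dermatan sulfate (-0.14), and Ids, which removes sulfate from iduronic acid (-0.22). These same 3 were the members whose DKO/hA1 Western diet libraries all lay below both DKO/hA1 chow libraries, where 14.7% of all genes did so with groups of this size; 17 members lay above, where 15.6% of all genes did. In DKO the diets did not overlap for 21 members, all higher, against 10.5% of all genes higher and 3.16% lower.

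Among proteases and protective proteins, 2 of 9 passed, and all 9 had a mean log2 fold change above 0, with a median of 0.33. Lgmn (chr12:102394082-102439728) was at 67.3, 21.7, 57.2 and 62.5 FPKM in DKO chow and at 100.6, 79.8 and 71.5 in DKO Western diet. It was at 52.85 and 25.3 FPKM on chow and at 108.8, 118.1 and 138.7 on Western diet in DKO/hA1. The diets did not overlap, and as for Laptm5, replicate 2 of each chow group was the lowest library. The log2 fold change was 0.71 ± 0.35 in DKO (limma adjusted p of 0.461), 1.69 ± 0.42 in DKO/hA1 (adjusted p of 0.0809) and 1.20 ± 0.27 as the mean (adjusted p of 0.0368). Without DKO chow replicate 2 the DKO value was 0.36, and without DKO/hA1 chow replicate 2 the DKO/hA1 value was 1.18. Over 20 alternatives of processing or of libraries left out, Lgmn was called as the mean in 10.

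Grn (chr11:102430507-102436809), progranulin, which is cut into granulins in lysosomes and is needed for their normal enzyme activity, was at 97.3, 59.8, 71.1 and 71.6 FPKM in DKO chow and at 104, 172.4 and 166.1 in DKO Western diet. It was at 85.05 and 75.6 FPKM on chow and at 107.1, 124.1 and 184.9 on Western diet in DKO/hA1. The gap between the diets was narrow in DKO, where replicate 1 on Western diet lay just above replicate 1 on chow. Log2 fold changes were 0.88 ± 0.23 in DKO and 0.73 ± 0.28 in DKO/hA1, with limma adjusted p of 0.190 and 0.261, and 0.81 ± 0.18 as the mean, with an adjusted p of 0.0326. Over 20 alternatives of processing or of libraries left out, Grn was called as the mean in 9, against 19 for Glb1 and 18 for Laptm5 and Gusb.

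Ctsl, cathepsin L, an endopeptidase and the most abundant member, was at 280.6, 248.3, 228.7 and 183.2 FPKM in DKO chow and at 317.4, 429.9 and 375.2 in DKO Western diet. It was at 255.4 and 312 FPKM on chow and at 254.9, 219.5 and 421.3 on Western diet in DKO/hA1. The diets were apart in DKO and overlapped fully in DKO/hA1. Its log2 fold change was 0.60 ± 0.23 in DKO and 0.01 ± 0.28 in DKO/hA1; the difference of -0.59 ± 0.36 had a limma adjusted p of 0.961. Without DKO/hA1 Western diet replicate 3, the highest of its group, the DKO/hA1 value was -0.27.

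The other proteases did not pass as the mean of both genotypes. Ctsc, which activates the granule proteases of neutrophils and lymphocytes, was at 0.68, with 98.4 FPKM in DKO/hA1 Western diet replicate 3 against 37.6 and 38.9 in the other libraries of that group. Ctsz, a carboxypeptidase, was at 0.35 (limma adjusted p of 0.0555), and Ctsa, the protective protein that forms a complex with Glb1 and Neu1, at 0.33 (adjusted p of 0.0717). For both, all Western diet libraries lay above all chow libraries. Ctsa overlaps Pltp, phospholipid transfer protein, over 1515 bases, and Pltp was called higher with a mean log2 fold change of 1.70 (adjusted p of 0.0077), so reads of the 2 genes may not be fully separated. Ctsh, an aminopeptidase, was at 0.26, Tpp1, tripeptidyl peptidase, at 0.18, and Ctsk at 0.13.

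**Figure D4:**
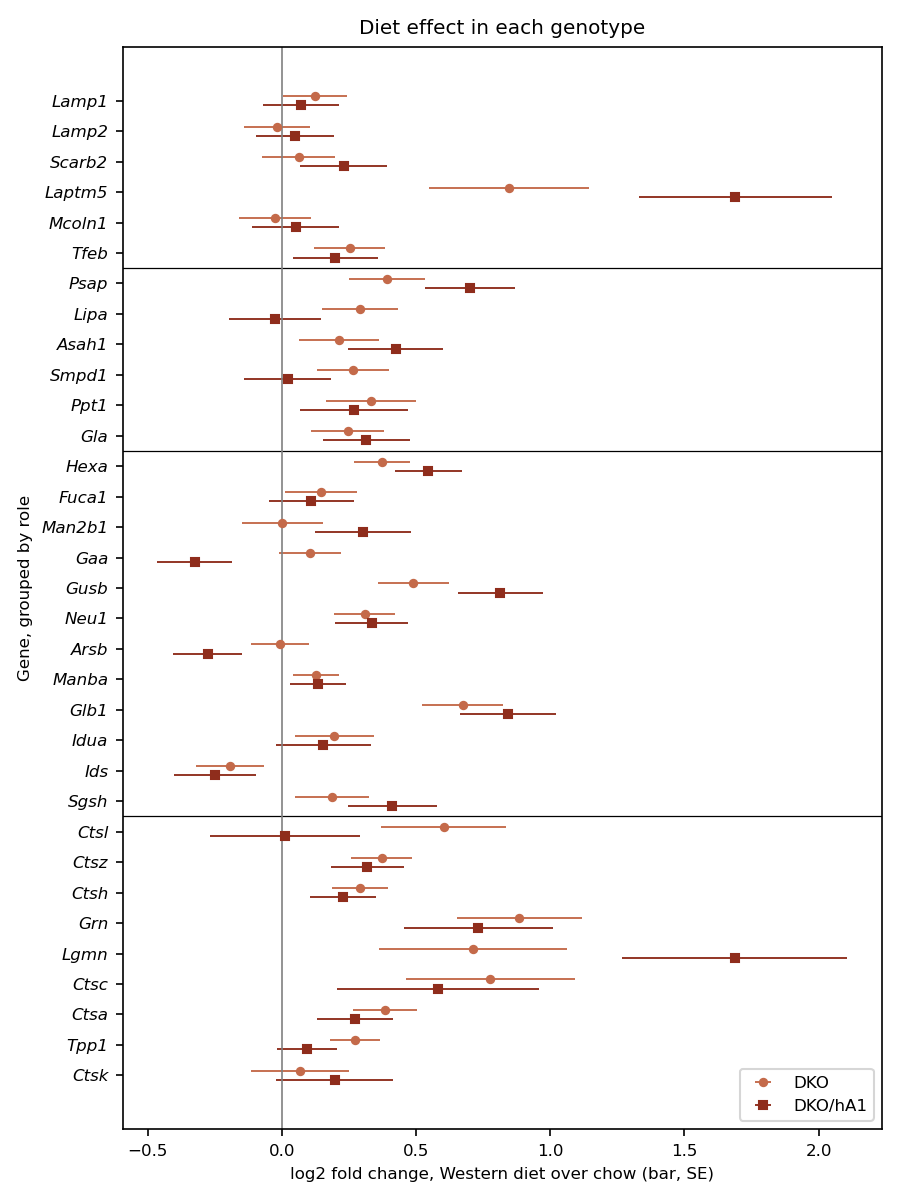
Log2 fold change of Western diet over chow for each of the 33 members in DKO (circles) and in DKO/hA1 (squares), with bars of 1 standard error from limma; the vertical line marks 0. Values above 0 outnumber those below, and Laptm5 and Lgmn have the largest values in DKO/hA1, both 1.69.

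Macrophage markers were called higher on Western diet as well, in DKO/hA1 and as the mean of both genotypes. Summed over 16 macrophage and Kupffer cell markers, none of which was at 0 in any library, levels were 326.8 to 758.1 FPKM in DKO chow, 1033 to 1360 in DKO Western diet, 249.9 and 616.4 for chow with human APOA1, and 1521 to 2407 for Western diet with human APOA1. Of these markers, 0 were called in DKO, 7 higher in DKO/hA1 and 9 higher as the mean of both, with medians of 0.86, 1.92 and 1.38. Over all genes, 0.0520%, 0.996% and 2.75% were called higher. As the mean of both, 15 markers were above 0 and 1 below, at -0.42. In DKO 15 were above 0 and 1 below, at -0.85, with an unadjusted limma p below 0.05. In DKO/hA1 all 16 were above 0. Kupffer cell genes among those called higher as the mean of both were C1qa, a subunit of complement C1q, at 1.31 ± 0.22 (limma adjusted p of 0.0103), and Vsig4, a complement receptor, at 1.53 ± 0.30 (adjusted p of 0.0216). Csf1r, the receptor on which macrophages depend, at 1.05 ± 0.37, and Clec4f, a lectin of mouse Kupffer cells, at 1.01 ± 0.27, did not pass (adjusted p of 0.147 and 0.0664). Neutrophil markers, of which 11 were in the table, summed to 29.1 to 89.6 FPKM in the chow libraries and to 107.9 to 4477 in the Western diet libraries, with the highest sums, 4218 and 4477, in the pair of libraries named above. Of the 10 neutrophil markers tested, 0 were called within either genotype and 2 higher as the mean of both, Lcn2 and Csf3r. At an unadjusted limma p below 0.05 all 10 were higher as the mean of both, where 1302 of the 11546 genes tested were. Only 3 of 9 listed T and NK cell markers and 2 of 5 listed B cell markers passed the level filter. The sums over those found were low in every library, at 2.23 to 8.34 and 0.64 to 4.73 FPKM. Of the T, NK and B cell markers tested 0 were called as the mean of both by limma (1 higher and 2 lower at an unadjusted p below 0.05), with medians of -0.01 and -0.50. The part of these cells in the levels of the lysosomal genes was not tested.

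The human APOA1 gene was compared with its absence on each diet, using the same libraries. On chow 0 of 33 members passed, against 0.0779% of all genes, and the median of the members was 0.03 against -0.000304 over all genes. On Western diet 0 members and 0 of all genes passed; at an unadjusted p below 0.05 there were 675 genes, or 5.85%, and among the members Gusb at 0.32 ± 0.14 and Ctsh at -0.33 ± 0.11. Ctsk, at 0.55, is not counted, because it passed the level filter only through DKO/hA1 libraries. Ctsh was the only member lower with human APOA1 at an unadjusted p below 0.05 on chow as well, at -0.27 ± 0.12 (limma adjusted p of 0.648). It was at 112, 112, 110 and 106 FPKM in DKO chow and at 92.7 and 92.9 in DKO/hA1 chow. On Western diet it was at 132.2, 139 and 154 FPKM in DKO and at 106.6, 106.2 and 116.6 in DKO/hA1. The genotypes did not overlap for Ctsh on either diet, and the same held for Manba. How many of all genes did so on both diets was not counted, and Ctsh was named after its values were seen. On Western diet 3 members lay lower without overlap, where 5.16% of all genes did. Laptm5 and Lgmn lay higher, where 4.38% did, with Ctsk again not counted. On chow these were 2 lower, where 9.28% did, and 4 higher, where 12.3% did.

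The difference between the 2 diet effects was tested directly as the interaction of diet and genotype. No member passed, against 0.0173% of all genes, and the lowest adjusted p of a member was 0.961 with limma. The largest values were 0.98 ± 0.55 for Lgmn, 0.84 ± 0.47 for Laptm5 and -0.59 ± 0.36 for Ctsl. At an unadjusted p below 0.05 there was 1 member, Gaa, at -0.43 ± 0.18, against 4.88% of all genes. The 95% interval of the difference was wide, from -0.22 to 2.17 for Lgmn and from -0.18 to 1.87 for Laptm5.

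Other genes of the lysosomal pathway were taken from lists chosen by function. Of 26 other lysosomal hydrolases and cofactors, 6 were called higher and 1 lower as the mean of both genotypes, with a median of 0.24. Ctsb, cathepsin B, was at 122.6 ± 13.9 FPKM (SD, n = 4) in DKO chow, 175.5 ± 4.46 (n = 3) in DKO Western diet, 123.4 ± 25.1 (n = 2) and 230 ± 17.7 (n = 3) on the same diets with human APOA1, and rose by 0.67 ± 0.10 (limma adjusted p of 0.0077). Ctsd, cathepsin D, rose by 0.69 ± 0.12 and Ctss, a cathepsin of antigen-presenting cells, by 1.16 ± 0.20. Pla2g15, the lysosomal phospholipase A2, rose by 0.99 ± 0.11 (adjusted p of 0.00129) and Dnase2a, an acid DNase, by 0.47 ± 0.10. Gm2a, the activator protein that presents GM2 ganglioside to hexosaminidase A, fell by 0.58 ± 0.11 on the log2 scale (adjusted p of 0.0174). In DKO/hA1 it was at 33.1 ± 1.09 FPKM on chow and 19.4 ± 3.11 on Western diet.

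Of the lists of membrane, pump, targeting, control and autophagy genes, each had 0 or 1 gene called, where 3.95% of all genes were called in either direction. Of 23 other membrane and transport proteins 1 passed, Cd68 at 1.45 ± 0.27 (limma adjusted p of 0.018), which is itself a macrophage marker; the median was 0.15. Npc1 and Npc2, which export cholesterol from the lysosome, were at 0.15 ± 0.17 and 0.28 ± 0.09 and did not pass. Of 18 genes of the proton pump 1 passed, Tcirg1, a membrane subunit, at 0.34 ± 0.08 (adjusted p of 0.0469), with a median of 0.13. Of 10 genes that target enzymes to lysosomes 1 passed, Sort1, a sorting receptor, which fell by 0.78 ± 0.19 on the log2 scale (adjusted p of 0.0418). Of 17 genes of transcriptional control and mTORC1 1 passed, Tfec, a relative of Tfeb in macrophages, at 0.72 ± 0.17 (adjusted p of 0.0389), with a median of 0.01. Of 12 autophagy genes 0 passed, with a median of -0.05; the largest value in size was that of Sqstm1, the receptor p62, at -0.65 ± 0.21 in DKO/hA1 (adjusted p of 0.163).

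**Figure D5:**
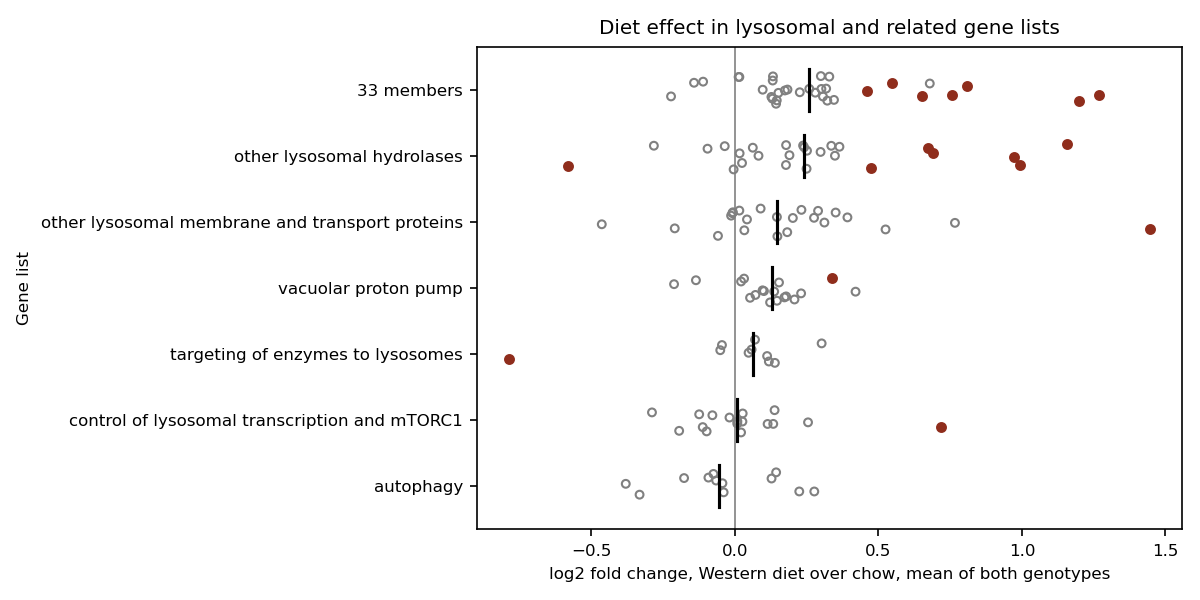
Log2 fold change of Western diet over chow, as the mean of both genotypes, for the 33 members and 6 lists of related genes; each point is a gene, filled where the limma adjusted p was below 0.05, and vertical bars are medians. The medians run from 0.26 for the members to -0.05 for autophagy genes.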

How the data were processed

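Liver RNA of 12 samples was sequenced on an Illumina Genome Analyzer IIx, per the labels. The submitters' processing notes name TopHat 1.3.2, Bowtie 0.12.8, SAMtools 0.1.19, Cuffdiff and build mm10; the Cuffdiff version, annotation and use of strand are not given in the sources used here. The deposited table is named for counts but holds the authors' FPKM values, with decimals and library sums of 379689 to 578927, so no count test was made and no counting intervals are given.

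Small RNA genes (781) were left out. So were 21 genes at 0 in every library of 1 group and at 1 FPKM or more in every library of another. Of the rest, the 11546 genes with at least 1 FPKM in at least 2 libraries were tested. Libraries were scaled by trimmed means of their log ratios to the geometric mean library, without weights (0.3 of ratios and 0.05 of levels trimmed at each end; factors 0.933 to 1.04). After adding 1, values were put on the log2 scale, so fold changes of low genes come out smaller. Printed FPKM are as deposited. limma 3.58.1 (R 4.3.3) fitted the 4 group means over 12 libraries with a trended, robust variance, and calls were made at 0.05 on the two-sided p adjusted by Benjamini-Hochberg over the genes tested. The procedure was tested on simulated data. Python 3.11.15, pandas 2.3.3, numpy 2.4.6 and matplotlib 3.10.9 were used for sequences and figures.

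Values in every library are given for members called in any comparison, for the most abundant member of each role and those with the largest diet effect, and for Tfeb, Lamp1, Lipa and Laptm5; Ctsh and Ctsc were named after their values were seen. The members, gene lists and tests were chosen with earlier results of these data known. Alternatives covered the value added, scaling, filter, variance model, replicate number, groups fitted, genes left out and each library left out. Values of 1 gene of the related lists are not reported here.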

Additional observations from a re-analysis of the deposited data

Results flagged for a closer look

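Only DKO chow, with 4 libraries, could be examined for single libraries far from the rest, for each of the 33 members. A value stands out where its gap to the nearest library is too large a share of the range of the group by Dixon's test, which chance alone gives in about 1 in 20 groups. This held for 3 members. Laptm5 was at 9.35 FPKM in replicate 2, below 19.1 to 20.9 in the others. Idua was at 1.77 FPKM in replicate 2, below 3.35 to 3.43, but its reads may not be fully separated from those of the overlapping Slc26a1. Arsb was at 8.23 FPKM in replicate 1, below 9.64 to 9.73. Replicate 2 also had the lowest macrophage sum of its group, 326.8 FPKM; its part in these values was not tested.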

How the results depend on the processing

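Depth is not known from FPKM, and groups of 2 to 4 libraries limit what could be called. No alternative turned a called value. With equal totals the median log2 fold change of the members was 0.0685 in DKO, 0.154 in DKO/hA1 and 0.108 as the mean of both, against a median of all genes of -0.186, -0.0843 and -0.137; for the human gene it was 0.0992 on chow and 0.155 on Western diet, and 0.0988 for the interaction. That scaling called 0 members and 69 genes in DKO/hA1, 3 members as the mean, and 1 gene for the interaction. With no further scaling the median in DKO was 0.333. With no filter 0 members were called in DKO/hA1, 27 genes for the human gene on chow and 8 for the interaction; with 0.1 added, 3 genes on chow. With no genes left out, an alternative chosen after seeing the data, the human gene had 34 genes on chow and 2 on Western diet, and the interaction 28. With only the groups compared, there were 0 members and 13 genes in DKO/hA1 and 37 genes for the human gene on chow. Without the 2 libraries highest in neutrophil markers, 31 genes were called in DKO, 0 members and 54 genes in DKO/hA1, 42 for the human gene on chow, and 4 members and 243 genes as the mean; the interaction median was 0.0235. Same-numbered libraries correlated between -0.284 and 0.447, others between -0.519 and 0.548, which gave no sign of pairing by replicate number. The 2 libraries of DKO/hA1 chow mirror each other, as with 0.447 and -0.447 against DKO chow replicate 2. Their values thus cannot decide the question. Pairing by anything other than replicate number, the number in the column headers included, was not examined here. With replicate number as a block, 0 members and 85 genes were called in DKO/hA1, 5 members and 298 genes as the mean, and 1 gene for the interaction. Leaving out each library gave 8 to 72 genes in DKO, with 0 to 0 members and medians of 0.231 to 0.29; 0 to 4 members, 6 to 190 genes and 0.165 to 0.284 in DKO/hA1; 0 to 7 members, 34 to 535 genes and 0.203 to 0.274 as the mean; 2 to 33 genes and -0.0449 to 0.0899 for the human gene on chow; 0 to 0 genes and -0.0489 to 0.000691 on Western diet; and 1 to 8 genes and -0.0392 to 0.0513 for the interaction. Except where the alternative itself tests fewer libraries, the cause was not tested. Over the settings other than single libraries left out, members called were 0 in DKO and for both comparisons of the human gene.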
